A study of Homo sapiens with 8 samples.

Results

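HBL-1 and BJAB, human lines grown from B-cell lymphomas, were compared by setting all 4 HBL-1 arrays against all 4 BJAB arrays, which together are the 8 arrays of the series. The 4 groups were HBL-1 with APRIL, HBL-1 with EDA, BJAB with APRIL and BJAB with EDA, with 2 arrays in each. Every group was grown in RPMI1640 with fetal calf serum and was given a ligand (purified recombinant APRIL, or EDA) at 1 µg/ml for 6 h, so none of the arrays shows a line without a ligand. APRIL (TNFSF13), a cytokine related to tumour necrosis factor, binds BCMA (TNFRSF17) and TACI (TNFRSF13B), and EDA, a ligand of that family with other receptors, was the control treatment. HBL-1 and BJAB are each a single established line, and a difference between them is a difference between these lines and not between types of lymphoma.

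Large B-cell lymphomas are sorted by their RNA into types that resemble stages of a normal immune response. Germinal-centre-type cells keep the programme of B cells that divide and mutate their antibody genes in the follicle, under the repressor BCL6. Activated B-cell-type cells carry genes of B cells that are leaving the follicle towards the plasma cell, with IRF4 and NF-kB activity at the centre. HBL-1 commonly stands for the activated type and BJAB for the germinal-centre type, and the question followed here is which genes separate them, and whether each separation is seen with APRIL and with EDA alike.

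The values are log2 signals, so a difference of 1 is a 2-fold difference in signal, and all differences are HBL-1 minus BJAB. They were deposited for 138745 rows, of which 36176 carry exactly 1 gene symbol. The row with the highest mean over the 8 arrays was taken for each of 33616 genes. A gene was said to pass when limma's adjusted p, over all 33616 genes and with the ligand as a covariate, was under 0.05. A difference was said to hold when it passed over both ligands and also passed, with the same sign, under APRIL alone and under EDA alone. The 612 rows that the annotation names as negative controls had an upper quartile of 6.31 to 6.59 on the 8 arrays, and a level of 6.59 or less is called dim below, since a difference from such a level may be larger than the arrays can show. In whole-culture RNA, fewer cells with a transcript and less of it per cell cannot be told apart. Across genes, arrays of the same line correlated at 0.988 to 0.993 and arrays of different lines at 0.942 to 0.946. The median gene level was 5.74 on HBL-1 APRIL replicate 2 and 5.58 to 5.66 on the other 7 arrays. Whether arrays of a group are separate cultures is not given in the labels, so p-values measure the spread between these arrays, which may be technical.

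Both lines had the RNA of B cells. CD79B, the signalling chain beside the B-cell receptor, was at 16.84 ± 0.16 in HBL-1, against 16.62 ± 0.10 in BJAB (SD, n = 4 arrays per line), and PAX5, the factor that fixes B-cell identity, was at 13.77 ± 0.20 and 14.18 ± 0.04 in the same order. Neither passed, and the coactivator POU2AF1 (0.08) and the Fc receptor-like protein FCRLA (-0.07) were close to 0. Of 13 measured B-lineage markers, 4 were higher and 4 lower in HBL-1, where 24.4% of all genes passed in either direction, and the mean of the 13 ran from 13.18 to 13.40 on the HBL-1 arrays and from 13.32 to 13.38 on the BJAB arrays. The adaptor BLNK (3.71) was the highest of them relative to BJAB and MS4A1, which encodes CD20, the lowest (-2.62, 10.08 ± 0.24 in HBL-1 against 12.70 ± 0.05 in BJAB).

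Markers of other cell types were mostly dim. The shares that passed were 27.3% of T-cell and NK-cell, 13.3% of myeloid and 33.3% of epithelial, fibroblast and endothelial markers, against 24.4% of all genes. Of 22 T-cell and NK-cell markers, 19 were dim in each line, 1 was higher and 5 were lower in HBL-1, and the list mean was 4.89 to 5.20 on the HBL-1 arrays and 5.24 to 5.45 on the BJAB arrays. The higher member was PRF1, at 8.11 ± 0.30 in HBL-1, against 5.71 ± 0.45 in BJAB, and it held. CD3G, a chain of the T-cell receptor complex, was the exception by size, at 5.26, 5.35, 4.47 and 5.41 on the HBL-1 arrays and 11.64, 11.66, 11.23 and 11.16 on the BJAB arrays. The other chains of that complex were lower in HBL-1 by far less, with differences of -1.73 for CD3D and -1.09 for CD3E. Of 15 myeloid markers 13 were dim in HBL-1 and 11 in BJAB, with list means of 5.24 to 5.71 and 5.89 to 5.99. None was higher and 2 were lower in HBL-1, the calcium-binding protein AIF1 (-7.60) and FCER1G (-0.81). The 15 epithelial, fibroblast and endothelial markers (list means of 5.70 to 6.12 in HBL-1 and 5.78 to 5.86 in BJAB) had 4 higher and 1 lower, the proteoglycan DCN (-6.58, 6.02 ± 0.25 in HBL-1 against 12.60 ± 0.17 in BJAB). Of the 15, 10 were dim in HBL-1 and 11 in BJAB. COL1A2 (9.89 in HBL-1, against 8.16 in BJAB), KRT19 (7.76 against 6.57) and EPCAM (1.62) were higher and held. EPCAM was dim in both lines. None of 10 erythroid and megakaryocyte markers passed, and HBB had a difference of 0.57. CD8A, CD14 and CDH1, picked as single examples, were dim in both lines and did not pass. The part of these markers in the results below was not tested.

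Over both ligands 8195 genes passed, 24.4% of those tested. HBL-1 had the higher level for 3496 (10.4%) and the lower for 4699 (14%). The excess of lower genes depended on the processing. After another quantile normalization 3922 were higher and 4491 lower, and over every row 5989 and 6174. Of the passing genes 4260 differed by at least 2-fold, 1529 by at least 4-fold and 414 by at least 16-fold. The 4-fold genes were 685 higher and 844 lower, and the 16-fold genes 218 higher and 196 lower. For 8713 genes (25.9%) every array of 1 line lay above every array of the other. A further description is of genes that were bright (mean of 10 or more) in 1 line and dim in the other: 123 passing genes were bright in HBL-1 and dim in BJAB, and 109 were dim in HBL-1 and bright in BJAB. At the other end, the 95% confidence interval of the difference lay within 2-fold for 25458 genes (75.7%). Among the 5652 genes with a mean of 10 or more, 3315 (58.7%) were within 2-fold in this sense, and 51.9% passed.

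The differences were largely the same with either ligand. Under APRIL 5594 genes passed (16.6%), 2662 higher and 2932 lower in HBL-1 (2814 and 2142 without HBL-1 APRIL replicate 1, 1914 and 1875 without BJAB APRIL replicate 1, so this balance has no settled direction), and under EDA 5564 passed (16.6%), 2091 higher and 3473 lower. A total of 4212 genes held under each ligand (12.5% of all genes), 1760 higher (5.24%) and 2452 lower (7.29%). They were 75.3% of the APRIL calls and 75.7% of the EDA calls. Larger differences held more often, with 87.2% of the 4260 genes that passed by at least 2-fold holding, against 498 of the 3935 smaller ones. Of the 8195 genes, 1033 passed under APRIL and not under EDA, 1090 under EDA and not under APRIL, and 1860 under neither ligand alone, where 2 arrays per line give a median standard error of 0.247 in place of 0.177. Among the 5564 genes that passed under EDA, which were chosen by that test, the difference under APRIL had a slope of 0.967 on that under EDA. Leaving out an array of the ligand tested lowered these counts, to between 3789 and 4956 under APRIL and between 3686 and 4215 under EDA. The group left with 1 array was then taken to vary like the other groups. The EDA count moved by over 1.5 times without BJAB EDA replicate 1, to 3686.

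**Figure D1:**
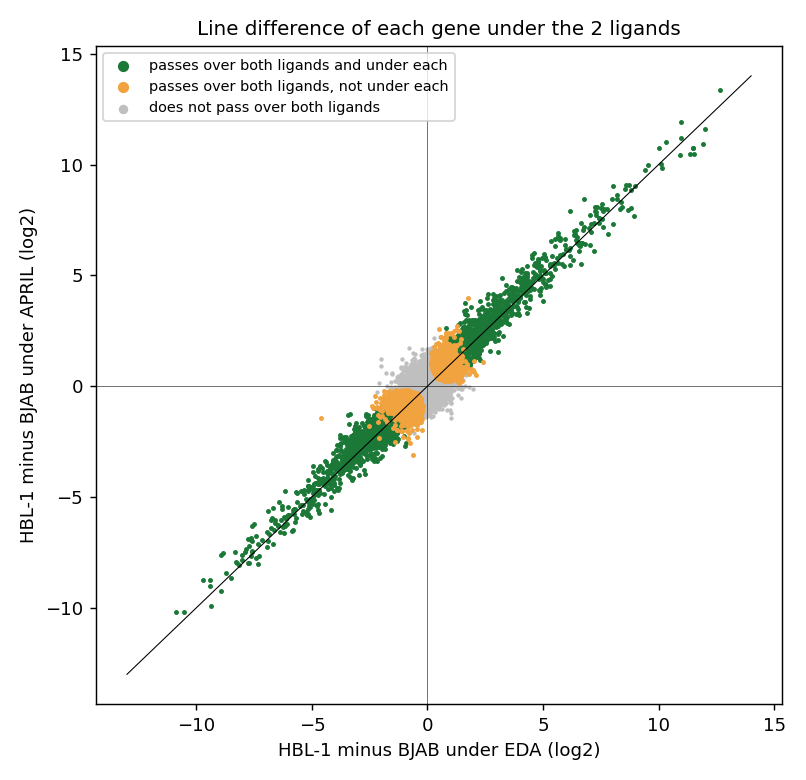
Line difference (log2, HBL-1 minus BJAB) of each of 33616 genes under APRIL (vertical axis) against that under EDA (horizontal axis). Green points hold under each ligand (4212 genes), orange points pass over both ligands but not under each, and grey points do not pass. The points follow the drawn line of equal difference.

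No gene was shown to differ between the lines to a different extent under the 2 ligands. The test of the difference itself, under APRIL minus under EDA, gave 0 genes at a limma adjusted p under 0.05, and 1894 of 33616 at an unadjusted p under 0.05. The median half-width of its 95% confidence interval was 0.778, and in simulated data 0 of 100 genes changed by 4-fold were recovered by this test, so the count of 0 does not show that the differences were equal. The ligand term of the fit over all 8 arrays also gave 0 genes, with 2240 at an unadjusted p under 0.05. The genes with the smallest p of the interaction (adjusted p = 0.843) were the maltase MGAM, with a difference of 1.44 under APRIL and -0.54 under EDA, and SEC16B, which acts where vesicles leave the endoplasmic reticulum. SEC16B was at 7.13 and 7.35 in HBL-1 with APRIL, 5.25 and 5.18 in HBL-1 with EDA, 4.66 and 4.57 in BJAB with APRIL, and 4.43 and 4.38 in BJAB with EDA. HBL-1 was above BJAB on every array, by 2.62 under APRIL and 0.81 under EDA, and SEC16B held. The lipid kinase DGKG (3.37 and 1.60 under APRIL and EDA), FAM170A (1.21 and -0.58) and the ciliary protein WDR19 (0.69 and -1.04) were next in that direction. In the other direction stood RSU1P3 (-0.74 and 0.98), TRAJ41 (-1.23 and 1.00), RNU6-320P (-0.51 and 1.45), RNU6-847P (-1.03 and 0.62) and PIEZO1P1 (-1.33 and 0.25), which are pseudogenes or short gene segments. MGAM, FAM170A, RSU1P3, TRAJ41, RNU6-320P and PIEZO1P1 were dim on every array of both lines.

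Exceptions to the agreement were few and were looked up after the values were seen. Only 4 genes passed under both ligands with opposite signs: RSU1P3, TRAJ41, RN7SL47P (1.03 under APRIL and -0.93 under EDA) and ZNF324B (0.76 and -0.80), and none of them passed over both ligands. Of the 1529 genes that passed by at least 4-fold, 1525 held. The other 4 were FAS-AS1 (-1.42 under APRIL and -4.60 under EDA), MIR8075 (3.96 and 1.76), CSRP2P (-1.79 and -2.53) and SNX7 (-2.35 and -2.08). SNX7, a sorting nexin, was at 8.61 and 6.45 in BJAB with APRIL and at 8.39 and 6.63 in BJAB with EDA, so that arrays of 1 group were far apart. In CSRP2P the array HBL-1 APRIL replicate 1 stood at 7.68 and the other HBL-1 arrays at 5.25 to 5.37.

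TMEM123, a mucin-like protein of the cell surface, had the largest difference of all genes that could be named. Its level was 17.35 and 17.28 in HBL-1 with APRIL, 17.17 and 17.20 in HBL-1 with EDA, 3.67 and 4.22 in BJAB with APRIL, and 4.49 and 4.56 in BJAB with EDA. The difference was 13.01 (SE 0.19, limma adjusted p = 2.2e-11), and BJAB was dim on every array. Its neighbours on chromosome 11 were looked up after their values were seen. BIRC2, an inhibitor of apoptosis, was higher by 6.65 and held. BIRC3 was higher by 0.74 and did not hold, at 6.81 in HBL-1 and at a dim 6.07 in BJAB. YAP1 (-0.27) and MMP7 (0.08), which lie beside them, did not pass. They were dim on every array of both lines, so they cannot show where the difference ends.

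CCND2, which encodes cyclin D2 of the G1 phase, was at 17.85 and 18.08 in HBL-1 with APRIL, 17.91 and 17.93 in HBL-1 with EDA, 6.93 and 6.62 in BJAB with APRIL, and 7.06 and 6.81 in BJAB with EDA. The lines were apart by 11.09 (SE 0.15, adjusted p = 2.1e-11), and the spread within a line was at most an SD of 0.19. The cancer-testis genes CT45A1 (11.82), CT45A5 (11.41), CT45A8 and CT45A9 (both 11.11), CT45A10 (10.99) and CT45A2 (10.93) came with it. These are near-identical copies on the X chromosome, CT45A8 and CT45A9 have the same values on every array, and the arrays may not tell the copies apart. The family was bright on all HBL-1 arrays, with 16.39 as the lowest value of these 6, and at most 7.04 on any BJAB array.

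The rest of the genes named by size in this direction were of several kinds. RCAN2, a regulator of the phosphatase calcineurin, had a difference of 10.66, BEX3 of 10.38 and the cytochrome CYB5A of 10.01. CDH2, the N-cadherin of neurons and mesenchymal cells, was at 15.13 ± 0.09 in HBL-1, against 5.07 ± 0.25 in BJAB (difference 10.06, adjusted p = 3.6e-11). BMP5, a secreted bone morphogenetic protein, was higher by 9.75 and the muscle-type tropomyosin TPM2 by 8.99. IRF4, a transcription factor that drives B cells towards plasma cells, was at 14.47, 14.68, 14.36 and 14.37 on the HBL-1 arrays, against 5.05, 4.58, 5.14 and 4.80 on the BJAB arrays. All 15 genes named by size were at 14.17 or more on every HBL-1 array and at 7.06 or less on every BJAB array.

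Among genes lower in HBL-1, PSMD9, a chaperone that helps to assemble the proteasome's regulatory particle, had the largest difference. It was at 4.88 and 4.82 in HBL-1 with APRIL, 3.81 and 4.04 in HBL-1 with EDA, 15.10 and 15.01 in BJAB with APRIL, and 14.83 and 14.81 in BJAB with EDA. The difference was -10.55 (SE 0.17, adjusted p = 3.6e-11), and HBL-1 was dim throughout. PRDX2, a peroxide-reducing enzyme, was at 6.25, 5.41, 6.73 and 6.22 on the HBL-1 arrays and 15.79, 15.71, 15.82 and 15.82 on the BJAB arrays. JCHAIN, which joins antibody units for secretion, was at 7.33 ± 0.60 in HBL-1, against 16.55 ± 0.02 in BJAB (difference -9.23).

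TOX, a nuclear factor of the HMG-box family, was lower (-9.21), as were the neuropeptide precursor NMU (-9.08) and DDAH1, which degrades methylated arginine (-9.07). The tetraspanin TSPAN18 (-8.58), the potassium channel KCNN3 (-8.57), the Rap exchange factor RAPGEF5 (-8.27) and the ceramide synthase CERS6 (-8.18) followed. The remaining genes of the list were the pseudokinase TRIB2 (-8.13), the serpin SERPINA9 (-8.11), the sphingosine-1-phosphate receptor S1PR2 (-8.10) and BMP7 (-7.93). BMP5 and BMP7, members of the same family, thus differed in opposite directions. A non-coding RNA within these ranks is not reported here.

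**Figure D2:**
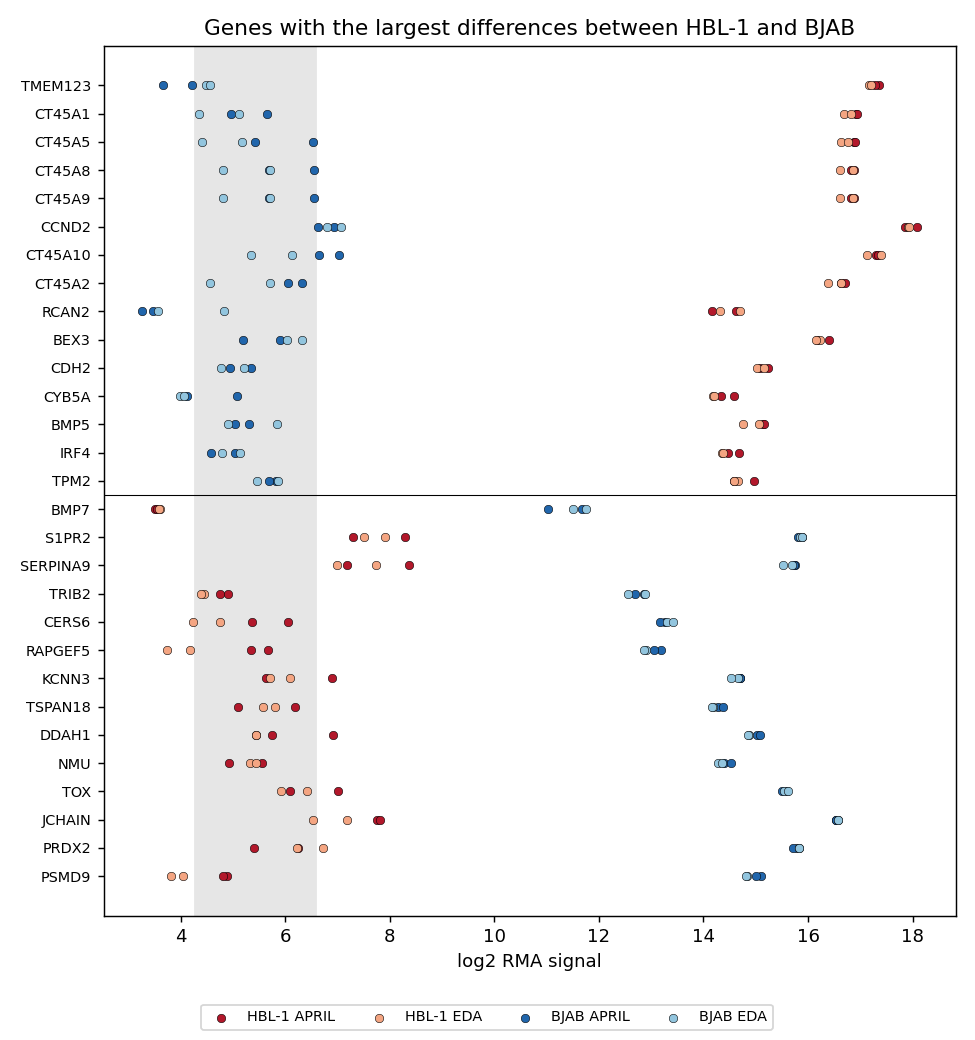
Log2 RMA signal (horizontal axis) of the 15 named genes with the largest positive difference and the 14 with the largest negative one, with a point for each of the 8 arrays. Red and orange points are HBL-1 with APRIL and with EDA, dark and light blue points BJAB with APRIL and with EDA, and the grey band spans the quartiles of the negative-control rows. The points of the lines do not overlap for any of these genes.

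Among 28 genes that mark activated B-cell-type lymphoma, HBL-1 had the higher level for 24 and the lower for none, with a median difference of 3.55, against 0.015 over all genes. All 24 held, with medians of 3.59 under APRIL and 3.58 under EDA over the 28. The share of the list that passed was 85.7%. Of protein-coding genes 34.7% passed, and of bright genes (mean of 10 or more) 51.9%, and both shares are the scale for the lists below. After CCND2 and IRF4 the smallest p-values were those of ENTPD1, the ectonucleotidase CD39 (15.21 ± 0.07 in HBL-1, against 6.95 ± 0.52 in BJAB), and the cytochrome b5 reductase CYB5R2 (14.32 ± 0.29 and 6.61 ± 0.21). The kinase PIM1 (7.81), the hyaluronan receptor CD44 (6.21), the transcription factors BATF (5.36) and FOXP1 (5.07) and the receptor TACI, TNFRSF13B (4.80), were in the list as well. The lowest passing member was PRKCB, a protein kinase C of receptor signalling, at 1.65. The 4 that did not pass were ETV6 (0.77), PTPRK (0.39), the cytokine IL16 (0.17) and the Rab GTPase RAB7B (0.15). RAB7B was dim in both lines.

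Markers of the germinal-centre type all passed and all held, 25 of 27 lower and 2 higher in HBL-1, with a median of -2.24. TOX, S1PR2, GCSAM and STAP1 had the smallest p-values. GCSAM, a signalling adaptor of germinal-centre B cells, was at 4.87, 4.96, 4.68 and 4.50 on the HBL-1 arrays, against 10.70, 10.23, 10.39 and 10.34 on the BJAB arrays. STAP1, another adaptor, was at 8.12 ± 0.26 in HBL-1, against 13.54 ± 0.05 in BJAB. The median hides a wide range: LMO2 (-1.10) and the focal adhesion kinase PTK2 (-1.24) were the nearest to 0. BCL6, named here although the rule did not choose it, was lower (-4.47) and was still at 11.81 ± 0.62 in HBL-1, against 16.28 ± 0.03 in BJAB. In HBL-1 16 of the 27 were dim, and 3 were in BJAB. The 2 members higher in HBL-1 were TNFRSF17 (5.12), the receptor BCMA, and CCDC88A (1.35). TNFRSF17 was placed in this list from earlier lymphoma signatures, and it is known above all as a receptor of plasma cells.

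Of 41 B-cell transcription factors, 14 were higher in HBL-1 and 13 lower (65.9% passed), and 26 of these 27 held. Beside IRF4, FOXP1, a forkhead factor, was at 16.25 ± 0.07 in HBL-1, against 11.18 ± 0.30 in BJAB (difference 5.07), and BHLHE40, chosen after its value was seen, was higher by 7.03. PRDM1, which encodes the plasma-cell factor BLIMP1, was higher by 2.83 (12.17 ± 0.36 against 9.33 ± 0.34), while XBP1, the factor of the secretory programme, was at 12.52 ± 0.24 and 12.46 ± 0.14 and did not pass. In the other direction MEF2C, a factor of germinal-centre B cells, had a difference of -4.02, and the myeloid and B-cell factor SPI1 of -2.88, RUNX3 of -2.80 and MYC of -1.66. RUNX1 (2.89) and RUNX3, related factors, differed in opposite directions. The Ikaros-family factor IKZF3 (0.03), ID3 (-0.04) and FOXO1 (-0.07) did not pass, with 95% confidence intervals inside 2-fold.

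**Figure D3:**
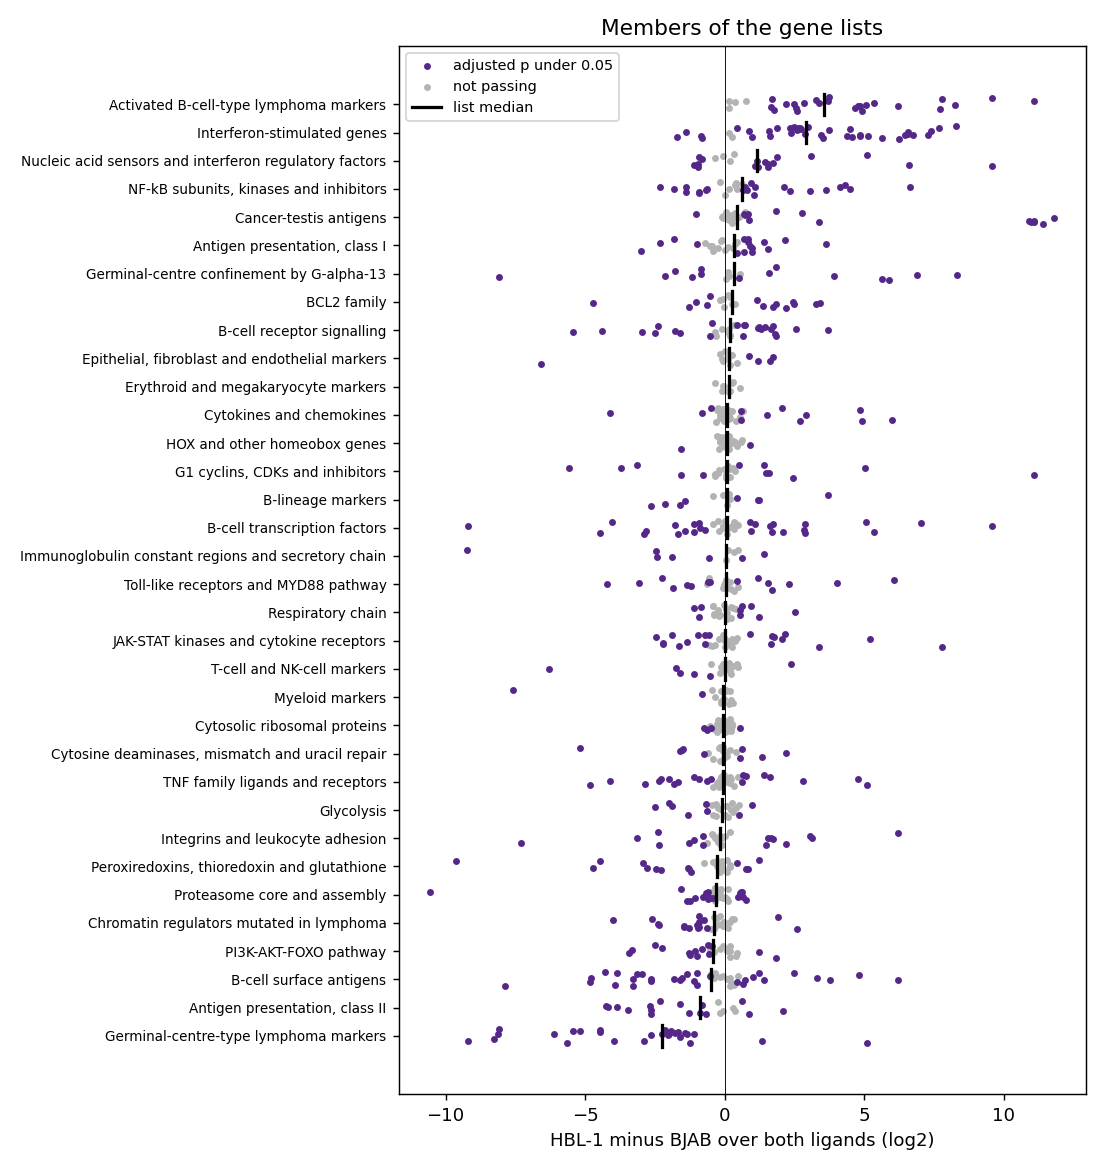
Difference between the lines over both ligands (log2, HBL-1 minus BJAB, horizontal axis) for each measured member of 34 gene lists, ordered by list median. Purple points pass at an adjusted p under 0.05, grey points do not, and black bars are list medians. The activated B-cell-type list (median 3.55) stands at the top and the germinal-centre-type list (-2.24) at the bottom.

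Interferon-stimulated genes are switched on by signals from interferon receptors, through a response element in the promoter. Of 40 measured, 34 were higher in HBL-1, 4 were lower and 2 did not pass, and 36 held. Their median difference was 2.93, with 2.86 under APRIL and 3.05 under EDA. Promoters of the 4 higher members with the smallest p and a window in the RefSeq promoter table (GRCh38.p14) are shown, since they hold the element through which the pathway is known to act. MX2 has no window there and was passed over. Each sequence is the 250 bases before the gene's start, on the plus strand, and for a gene with several starts the window with the most matches is given. Capitals mark matches to the core of the response element, GAAA followed by any 2 bases and GAAA again, on either strand.
IFIT3, chr10:89327747-89327996: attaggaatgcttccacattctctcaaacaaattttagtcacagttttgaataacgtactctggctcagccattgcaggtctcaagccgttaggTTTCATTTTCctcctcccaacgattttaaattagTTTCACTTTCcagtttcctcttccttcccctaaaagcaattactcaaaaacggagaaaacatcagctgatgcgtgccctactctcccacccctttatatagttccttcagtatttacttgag
IFI27, chr14:94110486-94110735: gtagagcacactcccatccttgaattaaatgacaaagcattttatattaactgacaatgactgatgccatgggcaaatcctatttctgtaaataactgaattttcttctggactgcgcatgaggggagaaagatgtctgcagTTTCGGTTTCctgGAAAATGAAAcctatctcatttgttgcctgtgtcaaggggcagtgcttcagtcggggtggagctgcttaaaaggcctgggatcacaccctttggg
IFI44, chr1:78649539-78649788: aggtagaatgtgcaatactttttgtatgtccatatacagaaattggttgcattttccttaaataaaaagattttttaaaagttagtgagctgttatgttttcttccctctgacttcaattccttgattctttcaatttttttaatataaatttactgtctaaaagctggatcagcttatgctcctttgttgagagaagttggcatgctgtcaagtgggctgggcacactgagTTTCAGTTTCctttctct
IFIT1, chr10:89392373-89392622: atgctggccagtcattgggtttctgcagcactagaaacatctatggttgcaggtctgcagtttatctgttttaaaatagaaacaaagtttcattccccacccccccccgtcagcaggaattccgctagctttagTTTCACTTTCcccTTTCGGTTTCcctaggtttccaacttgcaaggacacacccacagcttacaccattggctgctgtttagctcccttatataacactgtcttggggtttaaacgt

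IFI27 has 2 matches, 1 in each orientation, IFIT1 and IFIT3 have 2 each and IFI44 has 1. Among the 34 members that were higher in HBL-1, 27 have a window in the table and 19 of these (70.4%) hold a match, as do 4 of 5 (80.0%) of the other members. The same letters are in 515 of 14069 (3.7%) of all protein-coding genes tested. They are in 7.5% of the 481 protein-coding genes with a window that held by at least 4-fold higher in HBL-1, and in 5.3% of the 590 that held by at least 4-fold lower. Interferon-stimulated genes were not taken out of these sets, so matches of members such as IFIT3 count in the 7.5%. The share without them was not computed. A match describes the letters in the window and not binding by a factor.

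IFIT3, whose promoter opens the list, binds viral RNA complexes and was at 14.87 and 15.28 in HBL-1 with APRIL, 15.03 and 15.21 in HBL-1 with EDA, 8.94 and 8.61 in BJAB with APRIL, and 8.34 and 8.67 in BJAB with EDA (difference 6.46, SE 0.17, adjusted p = 3.9e-10). MX2, a GTPase that acts against viruses, was at 12.61 ± 0.13 in HBL-1, against 6.05 ± 0.26 in BJAB, and IFI27 was at 12.58 ± 0.22 and 5.82 ± 0.27. IFI44 had a difference of 7.28. The groups did not overlap in any of these, and BJAB was dim on all arrays for MX2 and IFI27. By size the list was led by IFI44L (8.29), MX1 (7.67) and IFIT1 (7.39), of which IFI44L and MX1 were chosen after their values were seen.

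Not every member was low in BJAB. Of the 40, 2 were dim in HBL-1 and 13 in BJAB, and the ubiquitin-like ISG15 (4.57), OAS1 (3.73), IFI16 (2.65) and PARP9 (2.87) were above the dim range in both lines. The 4 that were lower in HBL-1 were the membrane proteins IFITM1 (-1.38), IFITM2 (-0.85) and IFITM3 (-0.81) and the secreted LGALS3BP (-1.71), so the whole IFITM group on the list went the other way. HERC5 (0.26) and GBP4 (0.15) did not pass and were dim in both lines. PARP14 passed with 0.44 and did not hold, and it lost its call when any array but HBL-1 APRIL replicate 2 was left out, with differences of 0.42 to 0.48. The interferon gene IFNB1 was at 5.26, 6.95, 6.48 and 5.16 on the HBL-1 arrays and 5.33, 5.48, 5.02 and 5.38 on the BJAB arrays, and did not pass.

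**Figure D4:**
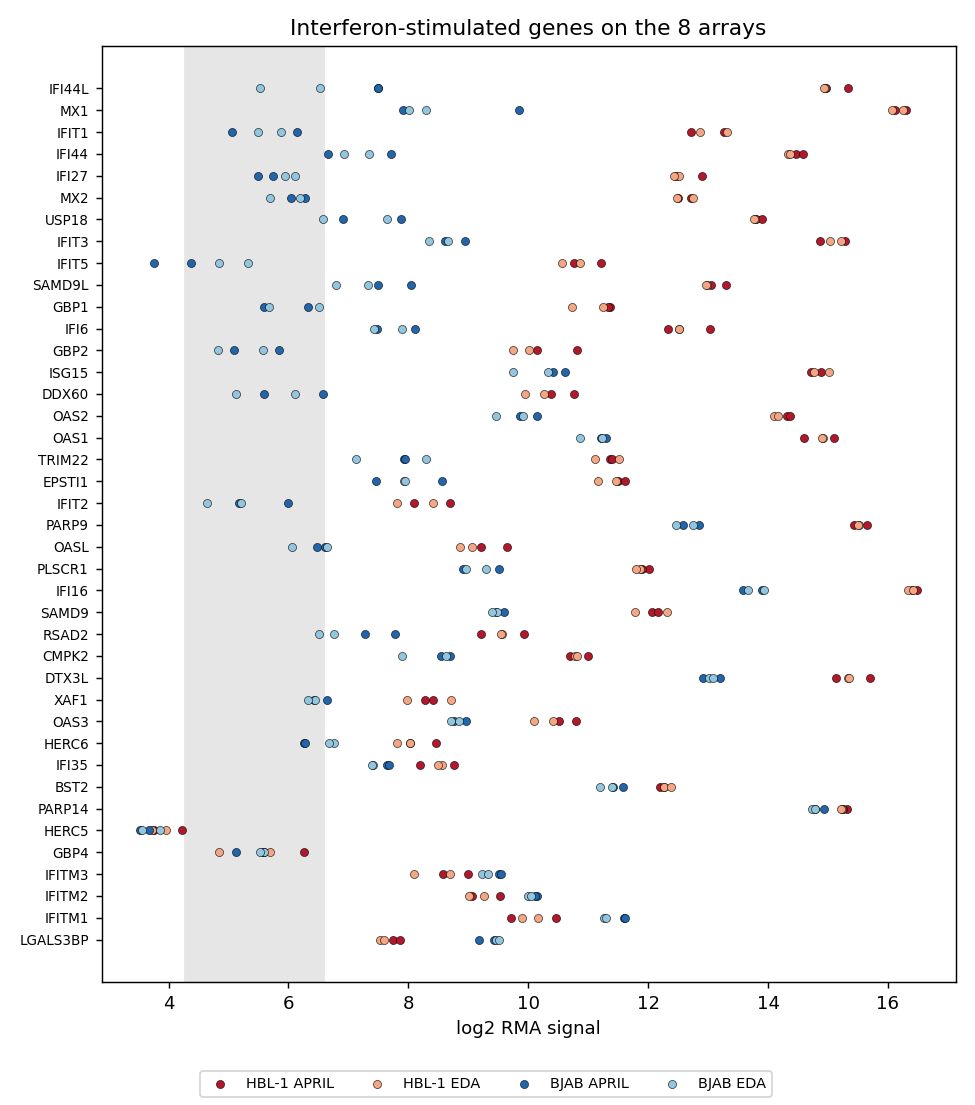
Log2 RMA signal (horizontal axis) of 40 interferon-stimulated genes, ordered by the difference between the lines, with a point for each of the 8 arrays. Red and orange points are HBL-1 with APRIL and with EDA, dark and light blue points BJAB with APRIL and with EDA, and the grey band spans the quartiles of the negative-control rows. HBL-1 lies to the right for 34 genes that pass and to the left for 4.

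Sensors of foreign nucleic acid, listed together with interferon regulatory factors, went mostly in the same direction. Of 21, 12 were higher, IRF4 among them, and 5 lower in HBL-1 (81.0% passed), with 15 holding. CGAS, the cytosolic DNA sensor, was at 10.34, 10.44, 10.34 and 10.36 on the HBL-1 arrays and 3.61, 4.37, 3.41 and 3.63 on the BJAB arrays (difference 6.62). AIM2, the DNA sensor of the inflammasome, was higher by 5.10 and the RNA-activated kinase EIF2AK2 by 1.87. STING1, which passes on the signal of CGAS, was lower (-1.10) over both ligands and did not hold (-0.61 under APRIL, -1.60 under EDA). The RNA sensors RIGI (1.55) and IFIH1 (1.72) were higher, while their adaptor MAVS was lower (-0.96). IRF9 (1.18) and IRF7 (1.54) were higher and held. IRF1 (-0.05) and IRF3 (0.20) did not pass, and both were dim in both lines.

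The B-cell receptor pathway differed member by member. Of 32 genes 14 were higher in HBL-1 and 9 lower (71.9% passed), and 17 held. BLNK, the adaptor that links the kinase SYK to downstream enzymes, was at 14.79 ± 0.21 in HBL-1, against 11.08 ± 0.22 in BJAB. The kinase FYN was at 7.58 and 7.40 in HBL-1 with APRIL, 6.08 and 6.35 in HBL-1 with EDA, 12.27 and 12.13 in BJAB with APRIL, and 12.24 and 12.55 in BJAB with EDA (difference -5.44). The phosphatases PTPN6, which encodes SHP-1 (-4.39), and PTPRC, which encodes CD45 (-2.37), were lower in HBL-1, as was CD81 (-2.97), a partner of the coreceptor. The core enzymes SYK (-0.10, 95% confidence interval -0.50 to 0.30) and PLCG2 (0.12, -0.20 to 0.43) did not pass. LYN (1.44), BLK (1.20) and MALT1 (1.29), which acts in NF-kB signalling below the receptor, were higher and held.

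Among Toll-like receptors and their pathway 7 of 27 were higher and 8 lower, and 12 held. Of this list 55.6% passed, against 34.7% of protein-coding genes and 51.9% of bright genes. TLR7, the endosomal receptor of single-stranded RNA, was at 12.55, 13.13, 13.08 and 12.30 on the HBL-1 arrays and 7.56, 7.09, 6.64 and 5.49 on the BJAB arrays (difference 6.07). CNPY3 (4.02), a chaperone of these receptors, and UNC93B1 (2.32), which carries the endosomal ones to their compartment, were higher too. TLR3, the receptor of double-stranded RNA (-4.22), and TLR10 (-3.07) were lower, with TLR6 (-2.25) and TLR1 (-1.85), which pair with TLR2 at the surface. MYD88, the shared adaptor, was at 12.90 ± 0.17 in HBL-1, against 12.46 ± 0.08 in BJAB, passed with 0.45 and did not hold. TRAF6 (0.03) and LY96 (-0.03) were nearest to 0.

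Of 35 JAK-STAT kinases and cytokine receptors 9 were higher and 10 lower, and 16 held. The share that passed was 54.3%, against 34.7% of protein-coding genes and 51.9% of bright genes. Dim members numbered 11 in HBL-1 and 10 in BJAB. PIM1, a kinase induced by STAT factors, was at 14.89, 14.92, 14.55 and 14.76 on the HBL-1 arrays and 6.97, 6.84, 7.56 and 6.51 on the BJAB arrays, and PIM2 was higher by 3.39. Both chains of the receptor of interleukin 10 were higher, IL10RA by 5.21 and IL10RB by 2.07, as was STAT3, which acts below it (14.53 ± 0.13 against 12.77 ± 0.03). STAT5A (-1.63) and STAT5B (-2.21), IL4R (-1.90) and the interferon-gamma receptor chain IFNGR1 (-2.47) were lower. The chains of the receptor of type I interferons had differences of 0.90 (IFNAR2, held) and 0.44 (IFNAR1, did not pass). JAK1 (-0.03) and PIM3 (-0.06) did not pass, and PIM3 was dim in both lines.

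The NF-kB list had 14 of 29 members higher and 8 lower in HBL-1 (75.9% passed), with 13 holding. Genes of the IkB family were among the members with the largest excess: NFKBID (4.49), NFKBIZ (4.33), NFKBIE (3.65) and NFKBIA (3.06), while NFKBIB (0.16) did not pass. NFKBIZ was at 14.18, 14.28, 14.17 and 13.75 on the HBL-1 arrays and 9.83, 10.02, 9.76 and 9.47 on the BJAB arrays. TNFAIP3, the ubiquitin-editing brake A20, was higher by 4.14. Among the subunits RELB (2.34) and REL (1.10) were higher and held, RELA (0.65) and NFKB1 (0.96) were higher and did not hold, and NFKB2 (-0.92) was lower and did not hold. TRAF3, which restrains the non-canonical branch, was lower (-2.30).

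In the tumour necrosis factor family 8 of 39 ligands and receptors were higher and 12 lower, with 13 holding. This family had 51.3% passing, against 34.7% of protein-coding genes and 51.9% of bright genes. Of the 39, 23 were dim in HBL-1 and 22 in BJAB, so bright genes are not a like scale for this list. TNFRSF17 was at 11.32 and 11.94 in HBL-1 with APRIL, 11.72 and 10.93 in HBL-1 with EDA, 6.52 and 6.31 in BJAB with APRIL, and 6.57 and 6.05 in BJAB with EDA. The receptors of the ligands given thus differed between the lines, with TNFRSF17 at 5.12, TNFRSF13B at 4.80 and EDA2R at 1.43, all holding, and EDAR (-0.07) was dim in both. Of the genes of the ligands themselves, TNFSF13 was lower (-0.62) without holding and EDA (0.10) did not pass. The death ligand TNFSF10 was higher by 2.80. CD27, a receptor of memory and germinal-centre B cells, was at 5.44 ± 0.45 in HBL-1, against 10.28 ± 0.25 in BJAB, and the lymphotoxin chain LTB was lower (-4.11). The death receptor FAS (-2.28) and CD40 (-1.83) were also lower.

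Of 43 surface antigens 11 were higher in HBL-1 and 20 lower, with 25 holding. In all 72.1% of them passed, where 34.7% of protein-coding genes and 51.9% of genes with a mean of 10 or more passed, and over all genes 10.4% were higher and 14% lower. CD44 was at 11.31, 12.22, 11.04 and 11.02 on the HBL-1 arrays and 5.02, 5.17, 5.40 and 5.16 on the BJAB arrays, the reverse of CD86, a costimulatory ligand of T cells, with 6.35, 5.72, 5.20 and 4.98 against 13.64, 13.35, 13.26 and 13.53. CD38, an enzyme of germinal-centre and plasma cells, was lower (-4.78) as was the receptor FCRL3 (-3.27). CD80, the other ligand of CD28, was lower (-4.27), and 4 receptors of the SLAM family differed, SLAMF7 being higher (3.79) and SLAMF1 (-3.91), CD84 (-3.85) and SLAMF6 (-3.29) lower. The checkpoint ligand CD274 was higher by 3.32. FCRLA and FCRL1 (0.18) were nearest to 0, and FCRL1 was dim in both lines. CD79A, which pairs with CD79B, passed with 0.46 and did not hold.

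Receptors that place B cells inside or outside the follicle separated the lines. CXCR4, the receptor for CXCL12, was at 14.25, 14.70, 14.31 and 14.10 on the HBL-1 arrays and 5.68, 6.34, 6.16 and 5.86 on the BJAB arrays (difference 8.33). The egress receptor S1PR1 (6.89), GPR183 (5.91), CCR7 (5.66) and CXCR5 (3.92) were higher as well. S1PR2, which keeps germinal-centre B cells in place through the G protein subunit GNA13, was at 7.75 ± 0.45 in HBL-1, against 15.85 ± 0.04 in BJAB. GNA13 (0.13) itself and CCR6 (0.17) did not pass, and CCR6 was dim in both lines. S1PR1 and S1PR2, receptors of the same lipid, thus differed in opposite directions. In this list of 18, 8 were higher and 6 lower (77.8% passed), and 11 held.

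Of 28 integrins and adhesion molecules 8 were higher and 8 lower, and 14 held. The share that passed was 57.1%, against 34.7% of protein-coding genes and 51.9% of bright genes, and 15 of the 28 were dim in each line. Beside CD44, PECAM1 (3.15) and SELPLG, the ligand of selectins (3.08), were higher. CD58, the ligand of CD2 on T cells, was at 5.64, 5.91, 4.93 and 5.93 on the HBL-1 arrays and 12.63, 12.77, 12.82 and 13.29 on the BJAB arrays. ITGB2, the beta chain of leukocyte integrins, was lower (-2.39), and ICAM1 (-0.18) and ITGAX (-0.18) did not pass. ITGAX was dim in both lines.

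Most of the 38 cytokines and chemokines did not pass, with 9 higher and 3 lower (31.6% passed). Of all 38, 27 were dim in HBL-1 and 30 in BJAB. CXCL16, a membrane-bound chemokine, was at 15.20 ± 0.10 in HBL-1, against 9.20 ± 0.30 in BJAB. IL7 (4.92) and IL15 (4.86), cytokines of lymphocyte survival, and IL6 (2.91), IL18 (2.71), IL10 (2.06) and CSF1 (1.51) were higher and held. IL10 was at 13.96 ± 0.14 in HBL-1, against 11.90 ± 0.27 in BJAB. LTB was lower and held, and LTA (-0.50) and IL23A (-0.82) were lower and did not hold. The T-cell cytokine IL21 (-0.07) and the chemokine CCL5 (0.08) did not pass, and CCL5 was dim in both lines.

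Genes of antigen presentation through class II molecules were lower in HBL-1 for 13 of 21 and higher for 3 (76.2% passed). Their median difference was -0.87, and 13 held. HLA-DQA1 was at 7.74 and 8.74 in HBL-1 with APRIL, 7.94 and 8.27 in HBL-1 with EDA, 12.36 and 12.38 in BJAB with APRIL, and 12.45 and 12.44 in BJAB with EDA (difference -4.24, SE 0.21). HLA-DPB1 (-3.87), HLA-DQB1 (-3.47) and HLA-DRA (-2.64) were lower too, as was the lysosomal protease LGMN (-4.19). The invariant chain CD74 was lower (-1.60), as was CIITA, the class II activator (-0.67), without holding. The higher members were the cathepsins CTSS (2.08) and CTSB (0.63) and the chaperone chain HLA-DMA (0.89). RFXANK (-0.23) and CTSL (-0.07) did not pass, and CTSL was dim in both lines.

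Presentation through class I molecules gave 12 of 28 higher and 4 lower (57.1% passed, against 51.9% of bright genes), with 9 holding. CD1C, which presents lipids, was at 12.57 ± 0.48 in HBL-1, against 8.94 ± 0.35 in BJAB (difference 3.63), the loading protein TAPBPL was higher by 2.17 and the class I activator NLRC5 by 1.55. ERAP2, an aminopeptidase that trims peptides, was at 6.56 ± 0.92 in HBL-1, against 9.54 ± 0.09 in BJAB. TAP1 (0.97) and the immunoproteasome subunits PSMB8 (0.71), PSMB9 (0.90) and PSMB10 (0.85) were higher by less than 2-fold. B2M (0.39), HLA-B (-0.71), HLA-G (-0.08) and CD1D (0.00) did not pass.

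Of 11 antibody constant-region and secretory genes 2 were higher and 5 lower (63.6% passed), with 4 holding. After JCHAIN, MZB1, a chaperone of antibody assembly (-2.47), IGHD (-2.43) and IGHA1 (-1.90) were lower. IGHA1 and IGHA2 are close copies and may share signal. IGLC3 was at 14.15 ± 0.24 in HBL-1, against 13.80 ± 0.26 in BJAB and did not pass. IGLL1 (0.12) did not pass either and was dim in both lines.

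Of 21 cytosine deaminases and repair genes 4 were higher in HBL-1 and 5 lower (42.9% passed), and 6 held. APOBEC3B, a deaminase that edits DNA, was at 5.60, 6.04, 5.91 and 5.50 on the HBL-1 arrays and 11.41, 11.38, 10.71 and 10.20 on the BJAB arrays. Its relatives APOBEC3C (-1.53) and APOBEC3D (-1.61) were lower as well, and these are close copies. The polymerase POLH, used in somatic hypermutation, was higher by 2.19 and the mismatch-repair gene MSH6 lower (-1.48). EXO1 (-0.03) and SMUG1 (-0.05) did not pass. The count of 4 higher members was 2 when any of HBL-1 APRIL replicate 1, HBL-1 EDA replicate 2, BJAB APRIL replicate 1 or BJAB APRIL replicate 2 was left out.

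The G1 regulators had 7 of 24 higher and 5 lower (50.0% passed, against 51.9% of bright genes), with 10 holding. The D cyclins differed in kind: CCND2 and CCND3 (1.60) were higher in HBL-1 and CCND1 was lower, at 5.01 ± 0.38 in HBL-1, against 8.71 ± 0.14 in BJAB. The inhibitor CDKN1A, which encodes p21, was at 9.27, 9.51, 8.93 and 8.70 on the HBL-1 arrays and 4.65, 3.70, 4.29 and 3.64 on the BJAB arrays. CDKN2A, the locus of p16 and ARF, went the other way, with 4.03, 4.79, 4.17 and 4.51 in HBL-1 and 10.17, 10.19, 9.74 and 9.77 in BJAB (difference -5.59). SKP2, a ubiquitin-ligase subunit that removes CDK inhibitors, was lower (-3.14). FBXW7 (0.04) and CDKN1C (0.05) did not pass, and CDKN1C was dim in both lines.

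Within the BCL2 family 9 of 21 were higher and 5 lower (66.7% passed), and 11 held. The survival proteins BCL2 and BCL2L1 went in opposite directions: BCL2 was at 8.51 ± 0.22 in HBL-1, against 5.09 ± 0.44 in BJAB (3.42), and BCL2L1, which encodes BCL-XL, was at 8.83 ± 0.42 and 13.54 ± 0.26 (-4.71). BCL2A1 (2.50) and the death-promoting BMF (3.27) and BID (2.47) were higher. MCL1 (-0.07) and BCL2L14 (-0.03) did not pass. The count of lower members was 3 without HBL-1 EDA replicate 1 and without BJAB EDA replicate 2.

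Of 26 genes of the PI3K, AKT and FOXO pathway 2 were higher and 12 lower, with 8 holding. The share that passed, 53.8%, is close to the 51.9% of all genes with a mean of 10 or more and above the 34.7% of protein-coding genes. Dim members numbered 8 in HBL-1 and 6 in BJAB. AKT1 was at 10.12, 10.91, 9.88 and 9.03 on the HBL-1 arrays and 13.53, 13.28, 13.17 and 13.61 on the BJAB arrays (difference -3.41), while AKT2 (-0.18) did not pass. The coactivator TCL1A (-3.33) and the catalytic subunits of haematopoietic cells, PIK3CD (-2.51) and PIK3CG (-2.24), were lower. SESN1 (1.85) and the phosphatase INPP5D (1.25) were higher.

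Of 31 chromatin regulators that are often mutated in lymphoma 2 were higher and 14 lower, with 12 holding. The share that passed, 51.6%, is that of bright genes in general (51.9%). The deacetylase HDAC9 was at 6.78 ± 0.53 in HBL-1, against 10.77 ± 0.36 in BJAB, and the architectural protein HMGA1 was lower (-2.40). TBL1XR1, a subunit of corepressor complexes (2.58), and the methylcytosine dioxygenase TET2 (1.93) were higher. EZH2, the histone methyltransferase of germinal-centre cells, was lower (-0.95) and held. ARID1A and ASXL1 (both -0.02) did not pass.

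Apart from the CT45A genes, the cancer-testis list was mostly dim. Of 30 members 13 were higher and 1, CTCFL (-1.03), lower in HBL-1 (46.7% passed), with 10 holding. Of all 30, 18 were dim in HBL-1 and 28 in BJAB. MAGEA1 was at 9.81 ± 0.21 in HBL-1, against 6.43 ± 0.32 in BJAB (3.38), and PRAME at 8.13 ± 0.29 in HBL-1, against 5.35 ± 0.20 in BJAB (2.77). CTAG2 was higher by 1.85. MAGEB2 (-0.04) and MAGEC2 (0.09) did not pass and were dim in both lines.

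Of 31 redox genes 4 were higher and 10 lower, with 9 holding, and 45.2% passed, between the shares of protein-coding (34.7%) and of bright genes (51.9%). TXNIP, the inhibitor of thioredoxin, was at 9.16, 8.51, 8.49 and 7.42 on the HBL-1 arrays and 13.07, 13.05, 13.14 and 13.11 on the BJAB arrays. The glutathione transferase GSTP1 (-4.45) and the glutaredoxin GLRX (-2.91) were lower, as was catalase, CAT (-2.79). PRDX1, a close relative of PRDX2, was at 16.49 ± 0.10 in HBL-1, against 16.41 ± 0.05 in BJAB, and NQO1 (-0.08) did not pass either.

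PSMD9 stood far from the other proteasome genes. Of 35 members 6 were higher and 11 lower (48.6% passed, against 51.9% of bright genes), with 6 holding. Without PSMD9 the range was -1.57 (PSMB5, a catalytic subunit) to 0.78 (PSMD6). The assembly chaperone PSMG2 (-1.34) was lower, and POMP (0.03) did not pass. The row used for PSMC1, which counts among the lower members, lies on another chromosome than that gene, and its value is not given. The count of higher members was 3 without BJAB APRIL replicate 2 and without BJAB EDA replicate 1.

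Housekeeping lists were near the middle. The shares that passed were 11.8% of cytosolic ribosomal, 34.6% of respiratory-chain and 33.3% of glycolysis genes. Homeobox genes, which are not a housekeeping list, are given here as well, and 7.4% of them passed. Of these 27 genes, 21 were dim in HBL-1 and 22 in BJAB, so most could not show whether their RNA was equal. Of 34 cytosolic ribosomal proteins 1 was higher, RPS27 (0.56), and 3 were lower, RPS15 (-0.72), RPL12 (-0.62) and RPS24 (-0.48), none held, and RPL30 (0.01) and RPS23 (0.02) did not pass, with 95% confidence intervals of -0.27 to 0.30 and -0.26 to 0.31. The count of lower members was 5 without HBL-1 APRIL replicate 2, and RPS24 lost its call under 5 of the 8 omissions of an array, with differences of -0.49 to -0.44. Among 26 genes of the respiratory chain 6 were higher and 3 lower, with SDHD (2.54), NDUFA9 (1.23) and ATP5F1A (0.95) holding above and NDUFA2 (-0.85) below. The lower count there was 5 without HBL-1 APRIL replicate 2. Of 24 glycolysis genes 2 were higher and 6 lower. The lower ones included the glucose transporters SLC2A3 (-2.50) and SLC2A1 (-1.87), PDK3 (-1.98) and ALDOC (-1.30), while TPI1 (-0.00) did not pass. The higher count there was 1 without any array but HBL-1 APRIL replicate 1 and HBL-1 EDA replicate 2. Among 27 homeobox genes HOXB7 was lower (-1.57) and held, and MEIS2 (0.90) was higher over both ligands, with a call that was lost without HBL-1 APRIL replicate 2 (0.74). Without HBL-1 APRIL replicate 1, HBL-1 EDA replicate 2 or BJAB APRIL replicate 2, the higher count of that list was 2. HOXD3 (-0.16) and PBX3 (0.16) did not pass.

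Of the 8195 genes that passed, 6018 were protein-coding. Of 17338 protein-coding genes 34.7% passed and 19.8% held, with a median level of 6.70, against 14.4% of 2391 long non-coding RNAs and 9.1% of 1455 microRNA genes, whose median levels were 4.71 and 4.78. Small structural RNAs, which are many near-identical copies that an array may not tell apart, leaned by class: 29 of 44 small nuclear RNAs passed, 28 of them lower in HBL-1, and 10 of 13 ribosomal RNAs passed, all higher. Among the 38 joining segments of antigen-receptor genes, 15 passed and 14 of these were higher.

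The direction of the differences varied between chromosomes. Over the 17250 protein-coding genes placed on chromosomes 1 to 22 and X, 42.8% of those that passed were higher in HBL-1. On chromosome 9 the share was 21.5% (54 higher, 197 lower), on chromosome 20 23.7% (32 and 103), on chromosome 14 26.4% (57 and 159) and on chromosome 5 28.5% (83 and 208). On chromosome 3 it was 65.3% (233 higher, 124 lower), on chromosome 18 64.0% (64 and 36) and on chromosome 8 60.2% (115 and 76). After another quantile normalization the share over all chromosomes was 46.9%, that on chromosome 9 25.8% and that on chromosome 3 68.3%. The median difference of all protein-coding genes, passing or not, was -0.12 on chromosome 9 and 0.10 on chromosome 3. These shares are a description with no test, and the copy number of either line was not measured.

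**Figure D5:**
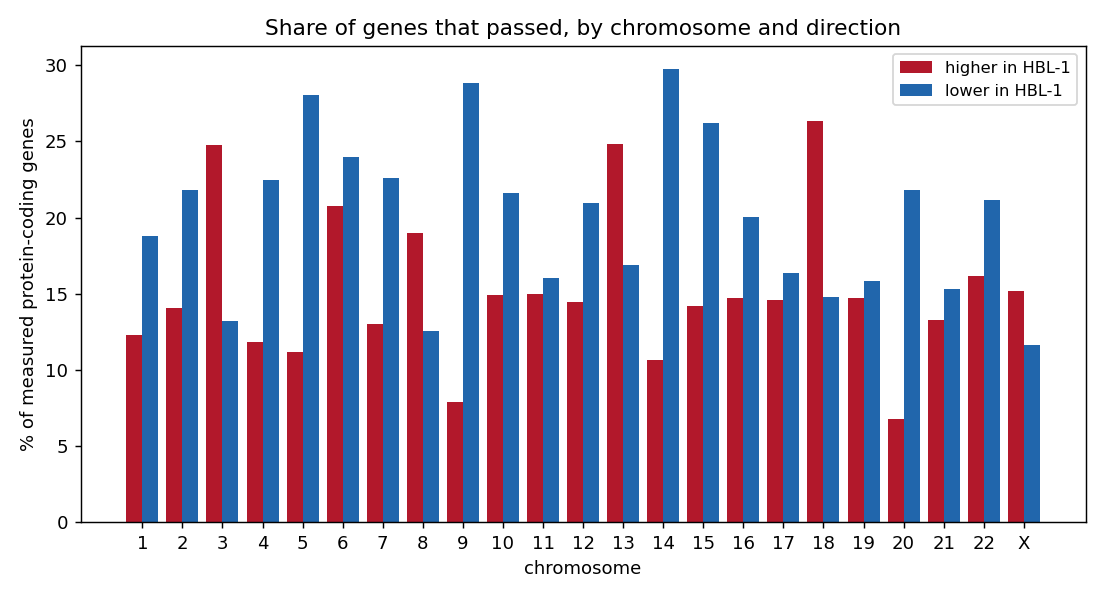
Percentage of measured protein-coding genes on each chromosome that passed over both ligands. Red bars are genes higher in HBL-1 and blue bars genes lower in HBL-1. Chromosomes 9, 14, 5 and 15 have the tallest blue bars, and chromosomes 18, 13 and 3 the tallest red ones.

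Neighbouring genes shared a direction in places. Runs of at least 5 protein-coding genes next to each other that all passed in 1 direction numbered 68, 20 higher and 48 lower in HBL-1, and contained 400 genes, 2.3% of those ordered. The longest was of 11 genes on chromosome 4, from TMEM165 to SRP72, all lower with a median of -1.35, of which 6 held. It contains NMU, the centrosome gene CEP135 (-3.02), the circadian factor CLOCK (-1.35), and PPAT (-1.58) and PAICS (-1.28), neighbouring enzymes of purine synthesis. AASDH (-0.87) in this run lost its call without HBL-1 EDA replicate 1 (-0.77) and without replicate 2 of that group (-0.83). On chromosome 8 a run of 10 genes from TMEM65 to TRIB1 was lower with a median of -2.69, and all 10 held. The ubiquitin ligase RNF139 (-3.21), the sterol enzyme SQLE (-2.72, 12.34 ± 0.22 in HBL-1, against 15.07 ± 0.16 in BJAB), WASHC5 (-2.46), NSMCE2 (-3.52) and the pseudokinase TRIB1 (-3.45) belong to it.

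On chromosome 19 a run of 10 genes was higher in HBL-1, 9 of them zinc-finger genes, with a median of 1.61 and 7 holding. ZNF841 stood out at 11.40, 11.57, 11.33 and 10.98 on the HBL-1 arrays and 5.03, 4.68, 5.44 and 4.94 on the BJAB arrays, and ZNF610 was higher by 1.96. PPP2R1A (0.64), in the middle, lost its call under 4 of the 8 omissions of an array (0.60 to 0.66). A run of 9 genes on chromosome 5 was lower (median -1.54, 7 holding), with the mitotic kinesin KIF20A (-1.72), CDC23 (-1.54), the phosphatase CDC25C (-1.13) and the demethylase KDM3B (-1.46) in it. Its members BRD8 (-0.49) and REEP2 (-0.79) lost their calls under 6 and 5 of the 8 omissions, with differences of -0.50 to -0.40 and of -0.79 to -0.63. A run of 8 on chromosome 2, lower with a median of -0.87 and 3 holding, included the inflammasome gene NLRC4 (-2.30), YIPF4 (-1.35) and BIRC6 (-1.10), and MEMO1 (-0.67) in it lost its call under 5 of the 8 omissions (-0.69 to -0.53). The last run named was of 8 histone genes on chromosome 6, higher with a median of 2.09 and 6 holding, led by H2AC8 (7.61), H4C5 (7.54) and H2BC8 (4.34), which are close copies whose signals may be shared.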

How the data were processed

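RNA of HBL-1 and BJAB cells was measured on 8 Affymetrix arrays, 2 for each line with each ligand. The submitters' processing notes name RMA and Affymetrix Expression Console as the tools with which the authors made the deposited log2 values, with versions not given in the sources used here. RMA subtracts background, makes the arrays' distributions equal and summarises probes, so the arrays share 1 scale, low signals are compressed and levels of different genes cannot be compared. The number of arrays limits the precision.

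Of 138745 rows, 1119 carry several symbols and 101450 none, and these were left out. For 1576 genes with more than 1 row the row with the highest mean was used. Gene names are those of the platform annotation, and 24324 of 33616 genes matched the RefSeq gene table by gene number, which gave gene types and order. The rows used for PSMC1, PGAM1, RPL7 and RPL9 lie on other chromosomes than those genes in RefSeq, so these members are counted in their lists but not described, and the rows used for BCL2L14, INPP5D, PSMC4, RPL7A and RPS25 have no position in the annotation. limma 3.58.1 in R 4.3.3 fitted line and ligand for the difference over both ligands, and 1 mean per group for the differences under APRIL, under EDA and between them. P-values were adjusted by Benjamini-Hochberg over 33616 genes at 0.05. In simulated data of the same size, 52 of 100 genes changed by 2-fold and 96 of 100 changed by 4-fold were recovered over both ligands. Under APRIL and under EDA 82 and 85 of 100 changed by 4-fold were recovered. Only 100 genes per fold were changed there, whereas 24.4% of genes passed in the data. A gene thus needed a smaller unadjusted p to pass in the simulation, and its shares do not give the recovery in the data.

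Genes were named by rule. By size these were the 15 largest differences each way that passed, held and did not overlap, without pseudogenes, multigene families of short segments and provisional symbols. For the interaction they were the 5 smallest p-values each way. For each list they were the 4 smallest p-values and the 2 differences nearest to 0 among members with a mean above 5.65, the median of all genes. That limit is below the dim level, so members named in this way can be dim in both lines. A difference near 0 at such levels does not show equal RNA. For neighbouring genes the longest runs were named, with ties. Other genes of a list that the text names were chosen after their values were seen, and so were the neighbours of TMEM123. The comparison and the 34 lists were chosen with earlier results of these data known. Alternatives covered the model, dim genes, rows, gene types, normalization, variance model, array weights, a 2-fold test, the replicate number as a block and each array left out. The differences of replicate 2 from replicate 1 hardly correlated between groups (r of -0.02 to 0.06 over all genes, many of them dim). Each group has a single such difference, so this cannot exclude a pairing by number, which the labels do not state. The tables and figures used Python 3.11.15 with pandas 2.3.3 and matplotlib 3.10.9.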

Additional observations from a re-analysis of the deposited data

Results flagged for a closer look

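Among 556 tests of a named gene on the 4 arrays of a line, 30 had 1 array set apart from the other 3 by more than Dixon's 95% critical value for 4 samples (gap over range), and chance alone gives about 5% of such tests. The array HBL-1 APRIL replicate 2, which also had the highest median level, accounted for 13, each time as the highest value. These were CD27 at 6.11, CGAS at 10.44, GSTP1 at 12.72, IFI27 at 12.90, IGHD at 7.94, KIF20A at 12.56 and NFKBIB at 7.53. The others on that array were PAICS at 12.79, PPAT at 14.54, PRF1 at 8.56, PSMG2 at 11.25, SPAST at 12.48 and TCL1A at 5.50.

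BJAB APRIL replicate 1 was highest for 6 genes, CD1C at 9.47, CD5 at 5.86, CLOCK at 9.15, CYB5A at 5.08, HLA-G at 8.85 and NDUFA2 at 13.34. HBL-1 APRIL replicate 1 was highest for CSRP2P at 7.68, where the other HBL-1 arrays were at 5.25 to 5.37, and lowest for IL7 at 10.08. HBL-1 EDA replicate 1 was highest for BCL2L14 at 7.36 and lowest for CD3G at 4.47 and WASHC5 at 11.97. HBL-1 EDA replicate 2 was lowest for FOXO1 at 10.44 and RPL30 at 18.77. BJAB APRIL replicate 2 was highest for LMO2 at 7.27 and TAPBPL at 10.04. BJAB EDA replicate 2 was highest for TRIB1 at 14.01 and lowest for KCNN3 at 14.52.

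The gap to the nearest other array ran from 0.06 for RPL30 to 2.30 for CSRP2P. Among these genes only CSRP2P was named for failing to hold in spite of a difference of at least 4-fold.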

How the results depend on the processing

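No difference of a named gene that passed changed sign. The balance of the APRIL calls did: 2662 were higher and 2932 lower, against 2814 and 2142 without HBL-1 APRIL replicate 1, 1914 and 1875 without BJAB APRIL replicate 1, 2396 and 2334 over protein-coding genes, 3646 and 3349 over every row and 805 and 788 in the 2-fold test. The medians of 8 of the 34 lists, between -0.08 and 0.09, changed sign under some alternative, among them the Toll-like receptor list (0.04, and -0.03 without dim genes or without HBL-1 APRIL replicate 2) and the antibody list (0.05, and -1.17 over protein-coding genes). A test against a 2-fold difference, which asks for more than a difference from 0, left 2073 genes over both ligands, 1593 under APRIL, 1560 under EDA and 1309 that held. With 1 array left out at a time, 6977 to 8050 genes passed over both ligands, 3789 to 5353 under APRIL, 3686 to 5871 under EDA and 3166 to 3871 held, and the interaction gave 0 each time. The lowest EDA count, 3686, was without BJAB EDA replicate 1. With the replicate number as a block, 8014 genes passed over both ligands, 5433 under APRIL and 5359 under EDA, 4090 held and the interaction gave 0. The share of EDA calls higher in HBL-1 was 37.6%, and 45.9% after quantile normalization again. Of 204 named genes that passed, 194 kept their call under every alternative other than the 2-fold test, and 9 of 680 list medians moved by more than the spread between arrays. Without dim genes the interferon-stimulated list had a median of 3.23 and the germinal-centre-type list of -2.65, and with the mean of a gene's rows the activated B-cell-type list had 3.01. Levels near those of the negative-control rows limit how large a difference can appear.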
